A study of Mus musculus with 8 samples.

Results

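The immunoglobulin kappa variable (Igkv) segments are the genes that supply most of the antigen-binding domain of kappa antibody light chains. All genes whose symbol begins with Igkv were taken, which gave 103 segments of the 37979 genes listed, and the number before the hyphen in the symbol sorted them into 19 families. They were measured by bulk RNAseq in 4 libraries of pericytes (PC-1 to PC-4) and 4 of smooth muscle cells (SMC-1 to SMC-4) from mouse hindlimb muscle, labelled biological replicates, each made from about 60000 cells combined from several sorts. Every animal was an Ai14+/-;SM22α-Cre+ mouse of either sex, 3 to 4 months old and given no treatment that the labels name. In these mice Cre made from the SM22α promoter switches on red tdTomato for good in any cell that has ever used that promoter. Both groups were sorted from viable cells that did not stain for CD31 or CD45 and stained for PDGFRβ, and only tdTomato set them apart: pericytes were PDGFRβ+tdTomato- and SMCs were PDGFRβ+tdTomato+. Levels are in FPKM, which scale the fragments of a gene by its length and by the size of the library, as the authors deposited them.

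In developing B cells, a light chain gene is built by joining a single variable segment to a joining segment, and the joined exon is then spliced to the kappa constant exon Igkc. Each B cell and its descendants therefore transcribe mainly the segment they have joined, and plasma cells transcribe it at a very high level. A population of many B cell clones shows many segments at moderate levels, whereas a few clones, or a few plasma cells, show a few segments. Neither pericytes nor smooth muscle cells are known to rearrange this locus. In bulk RNA, fewer cells of a type and less RNA per cell cannot be told apart.

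Igkv segments were far more abundant in the pericyte libraries than in the SMC libraries. Their FPKM summed to 8611 in PC-1, 20092 in PC-2, 5809 in PC-3 and 13866 in PC-4. In the SMC libraries the sums were 141, 233, 149 and 249 in SMC-1 to SMC-4. The groups did not overlap: the lowest pericyte library was 23.3 times the highest SMC library, and the pericyte mean of 12094 ± 6291 FPKM was 62.6 times the SMC mean of 193 ± 56.0 FPKM (SD over 4 libraries). As a share of all FPKM in a library, the segments made up between 0.808% and 1.77% in pericytes and between 0.0191% and 0.0357% in SMCs. Igkc followed the same order of libraries, with 10737, 27602, 7411 and 20893 FPKM in the pericyte libraries and 179, 332, 183 and 401 FPKM in the SMC libraries. The ratio of summed Igkv to Igkc was close in both groups, with a mean of 0.744 ± 0.0623 over the pericyte libraries and of 0.732 ± 0.0885 over the SMC libraries (SD, n = 4). The ranges overlapped, from 0.664 to 0.802 and from 0.622 to 0.818.

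Of the 103 segments, 99 were above 0 in at least 1 library and were tested, with limma on log2(FPKM + 1) and Benjamini-Hochberg adjustment (q value) over all 27414 genes tested. The other 4, Igkv13-87, Igkv2-95-2, Igkv17-134 and Igkv1-115, were listed at 0 in all 8 libraries and are annotated as pseudogenes in RefSeq. A log2 fold change above 2 with q below 0.05 called 80 segments as pericyte-enriched, against a background of 3.24% of all genes tested, and 41 when the fold threshold was built into the test (limma treat, background 1.23%). No segment was called as SMC-enriched, against a background of 2.66%, and 0 segments were lower in pericytes at an unadjusted p below 0.05. At q below 0.05 alone, 83 segments were higher in pericytes (background 10.6%). Every pericyte library was above every SMC library for 80 segments, whereas 12.1% of all genes tested were separated in this way. The log2 fold change over the 99 segments ran from -0.05 for Igkv12-47 to 7.39 for Igkv6-23 with a median of 4.73, beside a median of 0.02 over all genes tested. Of the called segments, 5 were listed at 0 in every SMC library, so their fitted fold change depends on the pseudocount. Tests rest on the spread between libraries that were each pooled from sorts, and not on single animals.

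The number of segments seen was high in pericytes and variable in SMCs. A total of 98, 95, 94 and 93 segments were above 0 FPKM in PC-1 to PC-4, and 63, 67, 41 and 37 were above 0 in SMC-1 to SMC-4. At 10 FPKM or more the contrast was wider, with 65 to 79 segments in a pericyte library and 1 to 3 in an SMC library. A total of 87 segments were above 0 in all 4 pericyte libraries and 23 in all 4 SMC libraries, and 20 segments, the 4 listed at 0 everywhere included, were at 0 in every SMC library. By their mean in pericytes, 73 segments reached 10 FPKM and 37 reached 100 FPKM.

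The Igkv levels of the SMC libraries rest on few fragments. The FPKM in a library were whole multiples of a step fitted for each segment length, and all 289 values under 20 steps lay within 0.1 of a whole number, so that the step was read as 1 fragment. For a segment as long as Igkv1-117 it was worth 0.331 to 0.421 FPKM depending on the library. On this scale the Igkv level stood for 18958, 42879, 14270 and 35790 fragments in PC-1 to PC-4, and for 320, 687, 379 and 646 fragments in SMC-1 to SMC-4. Segments with only 1 to 3 fragments numbered 2 to 9 in a pericyte library and 25 to 39 in an SMC library. When every library was thinned to 320 fragments, an alternative chosen after seeing the data, the expected number of segments above 0 was 62.3, 57.6, 59.8 and 51.2 in PC-1 to PC-4 and 63.0, 53.4, 38.1 and 28.3 in SMC-1 to SMC-4. Thinning treats fragments of the amplified libraries as independent. At equal numbers of Igkv fragments SMC-1 and SMC-2 were at the level of the pericyte libraries, while SMC-3 and SMC-4 lay below them.

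**Figure D1:**
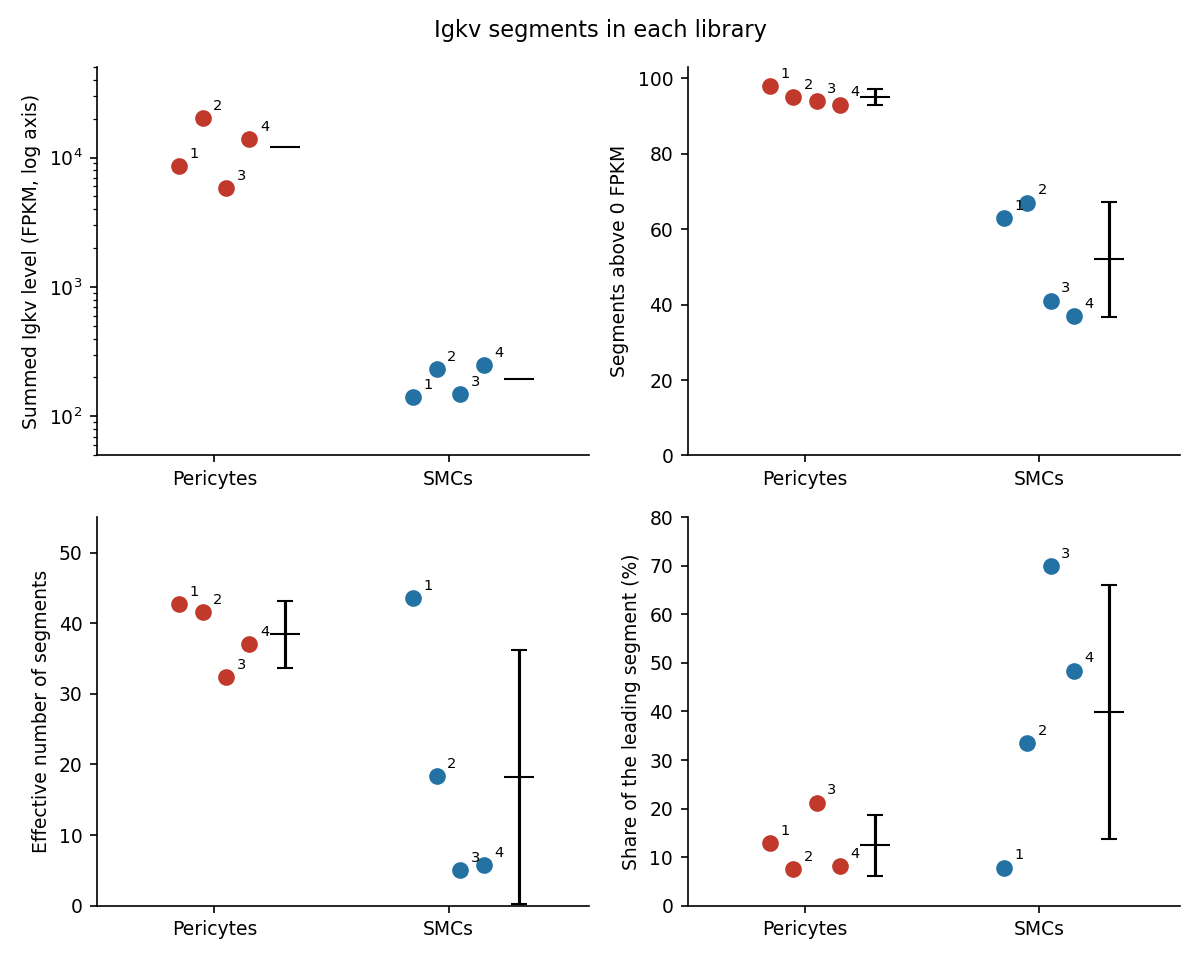
Each point is a library, numbered by replicate, in pericytes (red) and SMCs (blue); black bars give the mean and, in the panels with a linear axis, the SD (n = 4). The summed Igkv FPKM of the groups do not overlap (5809 to 20092 against 141 to 249), whereas SMC-1 is close to the pericyte libraries in its effective number of segments (43.6) and in the share of its leading segment (7.85%).

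Evenness was measured by the effective number of segments, the number of equally abundant segments that would give the same Shannon entropy, and by Pielou's evenness, which is 1 when all segments above 0 are equal. The effective number was 42.7, 41.5, 32.4 and 37 in PC-1 to PC-4 and 43.6, 18.4, 5.01 and 5.76 in SMC-1 to SMC-4. The pericyte libraries were alike, whereas SMC-1 was as diverse as they were and the other SMC libraries fell below them. The SMC mean of 18.2 ± 18.0 (SD, n = 4) was therefore carried by a single library and was 9.71 without SMC-1, beside 38.4 ± 4.70 (SD, n = 4) in pericytes. Pielou's evenness was 0.800 ± 0.0251 (SD, n = 4) in pericytes and ranged from 0.434 in SMC-3 to 0.911 in SMC-1. A share of 50% of the summed FPKM was reached by 10, 10, 7 and 10 segments in PC-1 to PC-4, but by 12, 2, 1 and 2 segments in SMC-1 to SMC-4.

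**Figure D2:**
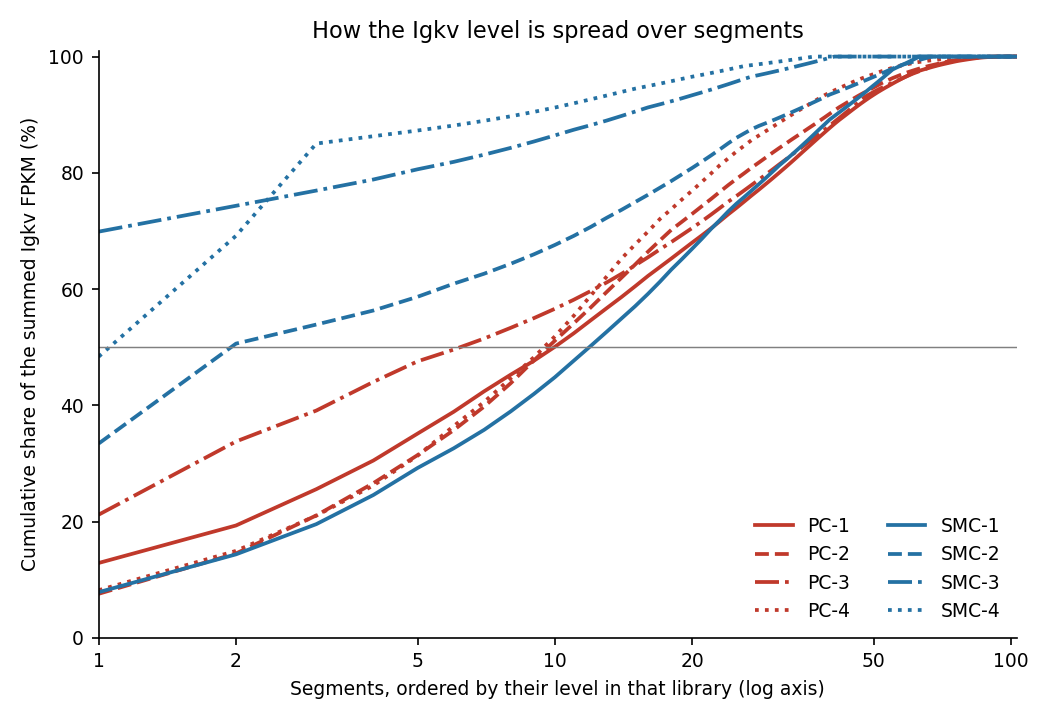
Cumulative share of the summed Igkv FPKM (vertical axis, %) against the number of segments counted from the most abundant down (horizontal log axis), for the 4 pericyte (red) and 4 SMC (blue) libraries; the grey line marks 50%. The pericyte curves and SMC-1 start between 7.58% and 21.2%, while SMC-2 starts at 33.4%, SMC-3 at 69.9% and SMC-4 at 48.4%.

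No segment dominated the pericyte libraries together, and each had a different leading segment. Igkv6-23 led PC-1 with 12.9% of the summed FPKM, Igkv1-117 led PC-2 with 7.58%, Igkv12-41 led PC-3 with 21.2% and Igkv10-94 led PC-4 with 8.19%. In the SMC libraries Igkv6-15 led SMC-1 with 7.85%, Igkv6-20 led SMC-2 with 33.4%, and Igkv10-94 led both SMC-3 with 69.9% and SMC-4 with 48.4%. As shares of estimated fragments, with 95% Wilson intervals that cover counting error only, Igkv6-20 held 38.3% of SMC-2 (34.7% to 42.0%, 263 fragments), and Igkv10-94 held 70.4% of SMC-3 (65.7% to 74.8%, 267 fragments) and 48.6% of SMC-4 (44.8% to 52.5%, 314 fragments). The intervals of these 3 libraries lay above every pericyte library, where the leading share of fragments was at most 21.3%. In SMC-4 another pair of segments stood high, Igkv5-43 with 20.8% and Igkv15-103 with 15.9%, and in SMC-2 Igkv10-96 held 17.2%. With its leading segment left out, the effective number rose to 27.7 in SMC-3 and 30.4 in SMC-2 but only to 7.76 in SMC-4, beside 37.5 to 47.9 in the pericyte libraries treated in the same way.

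Igkv12-41, the leading segment of PC-3, lies in 2 exons at chr6:69808414-69808878 on the minus strand (NCBI Build 37, GENCODE annotation). Its levels were 73.4, 95.4, 1231 and 506 FPKM in PC-1 to PC-4 and 2.13, 0.729, 0.391 and 0.768 FPKM in SMC-1 to SMC-4. The groups did not overlap, and PC-3 and PC-4 stood above the other pericyte libraries. Its log2 fold change was 7.08 ± 0.91 (SE) with q = 0.0016 by limma. The bases before its start codon hold the octamer ATTTGCAT, the element of immunoglobulin promoters bound by Oct factors and their B cell coactivator. The 120 bases before 4 of the segments that led a library or are named by the study are printed with the octamer, or the closest run to it (of tied runs, the one nearest the usual place), in capitals, because they show both forms found in this group of genes. Igkv12-41 and Igkv10-94 have the octamer itself, whereas Igkv6-23 and Igkv8-30 differ from it at 1 position.
Igkv12-41 (chr6:69808879-69808998, minus strand): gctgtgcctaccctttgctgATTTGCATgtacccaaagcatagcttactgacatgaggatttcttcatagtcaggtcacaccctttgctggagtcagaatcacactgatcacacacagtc
Igkv10-94 (chr6:68654973-68655092, minus strand): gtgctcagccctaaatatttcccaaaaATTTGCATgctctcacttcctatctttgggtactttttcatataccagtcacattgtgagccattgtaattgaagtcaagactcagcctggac
Igkv6-23 (chr6:70210928-70211047, minus strand): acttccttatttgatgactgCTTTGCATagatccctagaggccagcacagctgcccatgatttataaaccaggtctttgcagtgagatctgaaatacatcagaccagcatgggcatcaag
Igkv8-30 (chr6:70067612-70067731, minus strand): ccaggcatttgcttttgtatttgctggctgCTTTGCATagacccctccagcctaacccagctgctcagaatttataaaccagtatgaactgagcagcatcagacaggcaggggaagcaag

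The octamer was searched on both strands of the 120 bases before the annotated start of each gene. It was present in 61 of the 103 segments (59.2%), always on the strand of the gene, and its first base lay 83 to 109 bases before the start (median 100). Among all 37308 annotated genes with such a window, 1.13% held it on either strand and 0.600% on the strand of the gene. With up to 1 mismatch on the strand of the gene it was present in 84 segments (81.6%) and in 4.75% of all genes. The other genes are mostly annotated from their transcription start, and the segments from their start codon, so the windows do not lie at the same place in a promoter. The 18 segments of families 6 and 8 all lacked the exact octamer, and 14 of them had a run with 1 mismatch. Of the 42 segments without the octamer, 20 are annotated from a place other than a start codon. Levels were much alike with and without it: the median of the pericyte means was 57.4 FPKM over the 61 segments with the octamer and 64.6 FPKM over the 22 segments that lack it and are annotated from a start codon.

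Igkv6-23 led PC-1 and, with a pseudocount of 1 and all libraries kept, had the highest fold change of all segments. Its levels were 1109, 792, 205 and 234 FPKM in PC-1 to PC-4 and 2.98, 3.64, 0 and 1.92 FPKM in SMC-1 to SMC-4. All pericyte libraries were above all SMC libraries, and the log2 fold change was 7.39 ± 0.72 (SE, q = 0.000467, limma). With a pseudocount of 0.1 it was 8.52, below the 8.57 of Igkv14-111. Without PC-1 it was 6.96, below the 7.68 of Igkv12-41. Igkv6-15, a close relative 94.5% identical to Igkv6-23, was measured at 399, 1115, 309 and 201 FPKM in PC-1 to PC-4. Igkv6-15 was also among the higher segments of the SMC libraries, with 11.1, 7.65, 6.65 and 1.54 FPKM, and again the groups did not overlap (log2 fold change 5.93 ± 0.65 (SE), q = 0.000797, limma).

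Joining uses a recombination signal after the segment, a heptamer CACAGTG and a nonamer ACAAAAACC that are 12 bases apart in kappa variable segments. The heptamer was found at or near the annotated end of 82 segments, directly after it in 76, and 31 segments held both exact motifs within 40 bases, each time 12 bases apart. Searched in the same way on the strand of the gene, 0.745% of all 37309 annotated genes had the heptamer within the first 12 bases after their end, against 79.6% of the segments. The 40 bases after 3 leading segments are printed with the places of the heptamer and nonamer in capitals, since they show high segments with and without the exact heptamer.
Igkv6-23 (chr6:70210363-70210402, minus strand): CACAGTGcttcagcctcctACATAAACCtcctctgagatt
Igkv6-15 (chr6:70356423-70356462, minus strand): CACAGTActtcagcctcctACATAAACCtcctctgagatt
Igkv10-94 (chr6:68654462-68654501, minus strand): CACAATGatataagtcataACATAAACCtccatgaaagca
Igkv6-23 has the exact heptamer, whereas Igkv6-15 and Igkv10-94 each differ from it at 1 position, and all 3 differ from the nonamer at 1 position. Over all segments the median pericyte mean was 66.8 FPKM with the heptamer and 7.21 FPKM over the 21 segments without it, which reached up to 506 FPKM in Igkv6-15. Pseudogenes and segments with a shortened annotation are among those 21, and their part in the difference was not tested.

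Igkv1-117 had the highest mean of all segments in pericytes, 662 ± 626 FPKM (SD, n = 4), which was 5.47% of the summed mean. By the mean share of a library, which weights the 4 pericyte libraries equally, Igkv12-41 (6.54% ± 9.87, SD, n = 4) and Igkv6-23 (5.51% ± 5.01) stood above Igkv1-117 (4.53% ± 2.42). It was measured at 304, 1522, 111 and 711 FPKM in PC-1 to PC-4 and at 7.32, 5.63, 2.84 and 1.74 FPKM in SMC-1 to SMC-4. It was the only segment among the 10 highest of all 4 pericyte libraries, and its log2 fold change was 6.48 ± 0.81 (SE, q = 0.0014, limma). Igkv1-110, 97.2% identical to it, had a pericyte mean of 481 FPKM and an SMC mean of 2.41 FPKM. Reads from such pairs can be shared out between the copies in counting. In all, 32 segments had another segment at least 95% identical to them over the spliced sequence, the closest being Igkv5-45 and Igkv5-43 at 98.6%.

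The high segments formed a long list and not a short one. The 10 segments with the highest means held 38.8% of the summed pericyte mean. After Igkv1-117, Igkv6-23, Igkv6-15, Igkv1-110 and Igkv12-41 these were Igkv19-93, Igkv12-46, Igkv4-57-1, Igkv16-104 and Igkv12-44, with means from 471 down to 361 FPKM and SMC means from 0.614 to 4.21 FPKM. All 10 were called as pericyte-enriched, with log2 fold changes from 5.93 to 7.39. Among the 10 largest fold changes were also Igkv14-111 (6.75 ± 0.74, SE), Igkv4-55 (6.74 ± 0.48, SE) and Igkv4-72 (6.71 ± 0.91, SE). Neighbours in the order of the means did not differ beyond their spread, since the SD over pericyte libraries was 75.4% to 164% of the mean for these 10 segments. By mean share of a library, Igkv6-32 (3.84%, with 12.6% of PC-3) and Igkv10-94 (2.66%) were among the 10 highest. They took the places of Igkv16-104 (place 12) and Igkv4-57-1 (place 15). Igkv8-30, the segment named by the study, was measured at 84.8, 249, 68.2 and 77.2 FPKM in PC-1 to PC-4 and at 2.94, 3.16, 0.678 and 0.999 FPKM in SMC-1 to SMC-4. It was called, with a log2 fold change of 5.25 ± 0.50 (SE, q = 0.000404, limma), and took place 36 in the order of pericyte means.

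**Figure D3:**
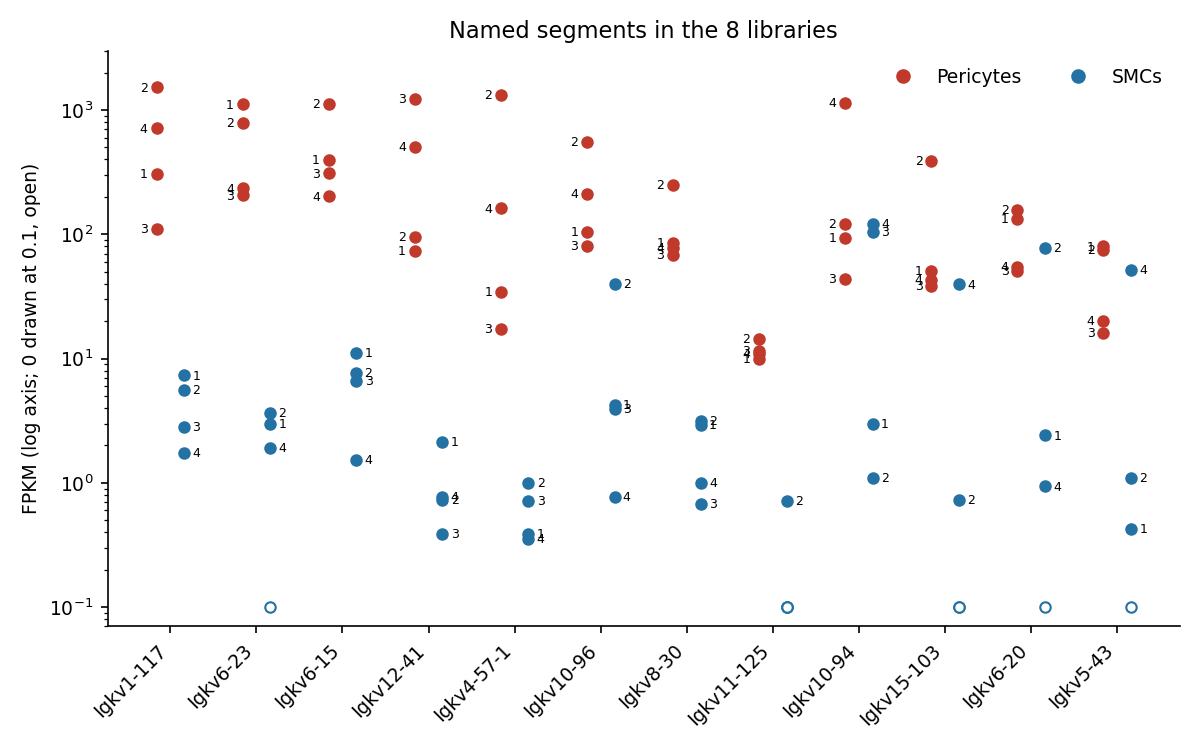
FPKM (vertical log axis) of 12 named segments in each pericyte (red) and SMC (blue) library, numbered by replicate; open points at the bottom are values of 0. From Igkv1-117 to Igkv11-125 the groups do not overlap, and in the last 4 segments at least 1 SMC value lies inside the pericyte range, such as Igkv10-94 with 104 FPKM in SMC-3 and 121 FPKM in SMC-4.

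In a few segments that were not called, single SMC libraries reached the level of pericytes. Only 6 segments were at 10 FPKM or more in any SMC library. Igkv10-94 was at 93.8, 121, 44.1 and 1136 FPKM in PC-1 to PC-4 and at 2.98, 1.09, 104 and 121 FPKM in SMC-1 to SMC-4. The groups overlapped, and its log2 fold change was 3.11 ± 1.67 (SE) with q = 0.269 by limma. Igkv6-20 was at 133, 158, 50.4 and 55 FPKM in PC-1 to PC-4 and at 2.41, 77.9, 0 and 0.935 FPKM in SMC-1 to SMC-4. Its q was 0.0637 with all libraries and 0.0019 without SMC-2, the library it led. With the replicate number as a block and all libraries kept, its q was 0.041 (limma). Igkv5-43 was at 79.8, 75.1, 16.2 and 20.03 FPKM in PC-1 to PC-4 and at 0.425, 1.09, 0 and 51.8 FPKM in SMC-1 to SMC-4, with q = 0.116 in all libraries and 0.0052 without SMC-4. Leaving out 1 SMC library thus changed the call of Igkv6-20 and of Igkv5-43, whereas Igkv10-94 was not called with any single library left out (q from 0.176 to 0.493, limma).

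Igkv15-103 was called by a narrow margin. It was at 50.5, 392.4, 38.4 and 42.8 FPKM in PC-1 to PC-4 and at 0, 0.729, 0 and 39.6 FPKM in SMC-1 to SMC-4, so SMC-4 lay above PC-3. Its q was 0.0475 by limma and rose to between 0.0766 and 0.118 without any 1 of PC-1 to PC-4 or SMC-1 to SMC-3. With the replicate number as a block it was 0.0849 (limma). Igkv10-96 was at 105, 556, 80.5 and 212 FPKM in PC-1 to PC-4 and at 4.25, 40.1, 3.91 and 0.768 FPKM in SMC-1 to SMC-4. It did not overlap between groups and was called with a log2 fold change of 4.76 ± 1.03 (SE, q = 0.0155, limma). The last of the 6, Igkv6-15, reached 11.1 FPKM in SMC-1 and was among the called segments. Igkv8-18 and Igkv5-37 were not called although they reached 17.8 and 15.3 FPKM in PC-2. Both were listed at 0 in PC-4 and in all 4 SMC libraries, and with PC-4 left out both had q below 0.05 (0.0029 and 0.0401, limma).

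Igkv10-94 and Igkv10-96 have the same spliced length in 2 exons, with 95.4% identity over the spliced sequence, so the second exon of both is printed with the 16 of 298 positions that differ in capitals. These positions are what a read must cover to be given to one segment and not to the other.
Igkv10-94 (chr6:68654502-68654799, minus strand): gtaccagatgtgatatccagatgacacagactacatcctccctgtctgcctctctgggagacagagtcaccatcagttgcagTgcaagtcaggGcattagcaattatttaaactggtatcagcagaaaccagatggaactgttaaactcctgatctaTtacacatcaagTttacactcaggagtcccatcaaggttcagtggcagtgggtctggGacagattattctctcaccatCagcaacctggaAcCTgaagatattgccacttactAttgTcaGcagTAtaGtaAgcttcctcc
Igkv10-96 (chr6:68581957-68582254, minus strand): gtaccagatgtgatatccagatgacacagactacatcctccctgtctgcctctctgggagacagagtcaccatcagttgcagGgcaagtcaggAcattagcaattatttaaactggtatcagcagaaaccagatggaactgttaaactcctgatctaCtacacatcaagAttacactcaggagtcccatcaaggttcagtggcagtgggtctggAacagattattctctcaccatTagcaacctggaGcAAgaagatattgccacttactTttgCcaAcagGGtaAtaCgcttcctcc
Of the 16 positions, 7 lie in the last 30 bases before the recombination signal, which code for part of the third hypervariable loop. The levels of the pair were not proportional across libraries. In estimated fragments, Igkv10-94 had 267 and Igkv10-96 had 10 in SMC-3, and 314 and 2 in SMC-4, whereas SMC-2 had 3 of Igkv10-94 and 110 of Igkv10-96. Igkv10-95, the third segment of the family, was 80.4% identical to Igkv10-94 and was measured at 7.85 to 37.9 FPKM in pericytes and at 0 to 0.800 FPKM in SMCs.

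By family, families 4 and 6 held the largest mean shares of the pericyte Igkv level. Family 4 is the largest, with 26 segments, of which 22 were called, and held 19.3%, 17.4%, 10.4% and 25.3% of the summed FPKM in PC-1 to PC-4. Family 6 has only 9 segments, of which 7 were called, and held 23.1%, 13.6%, 25.4% and 7.04%. The order of the pair changed from library to library, and the means of 18.1% ± 6.10 (SD, n = 4) and 17.3% ± 8.54 (SD, n = 4) did not differ beyond their spread. Family 12, with 7 segments, of which 6 were called, held 5.91% and 5.42% in PC-1 and PC-2 but 24.6% and 18.9% in PC-3 and PC-4. Family 1 (11 segments, 8 called) held 10.5% ± 4.41, family 8 (9 segments, 7 called) 9.58% ± 4.99 and family 3 (9 segments, 7 called) 5.17% ± 2.01 (SD, n = 4 each). Within families the level was spread unequally: the leading segment held 16.5% of the mean pericyte level of family 4 (Igkv4-57-1), 44.8% of family 1 (Igkv1-117) and 78.1% of family 14 (Igkv14-111). The lead of Igkv4-57-1 rested mostly on PC-2, where it was at 1315 FPKM. By mean share of a library Igkv4-72 (2.58%) stood above Igkv4-57-1 (2.10%).

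Families made of a single measured segment differed widely in pericytes. Igkv19-93 averaged 471 ± 618 FPKM, Igkv16-104 365 ± 352.1 FPKM and Igkv15-103 131 ± 174 FPKM (SD, n = 4 each). At the low end stood Igkv11-125, Igkv18-36 and Igkv7-33. Igkv11-125 averaged 11.7 ± 1.95 FPKM (SD, n = 4) and had the smallest spread relative to its mean of all segments at 10 FPKM or more. It was at 9.94, 14.5, 11.4 and 10.9 FPKM in PC-1 to PC-4, at 0.711 FPKM in SMC-2 and at 0 in the other SMC libraries, and was called with a log2 fold change of 3.46 ± 0.21 (SE, q = 5.9e-05, limma). Igkv18-36 and Igkv7-33 averaged 1.42 and 0.702 FPKM in pericytes, were at 0 in all SMC libraries and were not called.

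A few families took very different shares of the SMC libraries. The SD of the share was larger over the SMC libraries for 11 families and larger over the pericyte libraries for 8, among them families 12 (9.59 against 2.66 percentage points) and 4 (6.10 against 4.47). Family 10, with 3 segments, held 5.70%, 17.7%, 72.5% and 48.7% of SMC-1 to SMC-4, but 2.48%, 3.56%, 2.52% and 9.78% of PC-1 to PC-4. The highest pericyte share was in PC-4, the library that Igkv10-94 led. Family 6 held 41.1% of SMC-2 and 2.07% to 17.8% of the other SMC libraries, and family 5 held 21.7% of SMC-4 and at most 2.01% of the others. In FPKM no family was higher in SMCs: family 10 summed to 608 ± 559 FPKM over the pericyte libraries and 69.7 ± 54.1 FPKM over the SMC libraries (SD, n = 4 each), although SMC-4 with 121 FPKM came near PC-3 with 147 FPKM.

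**Figure D4:**
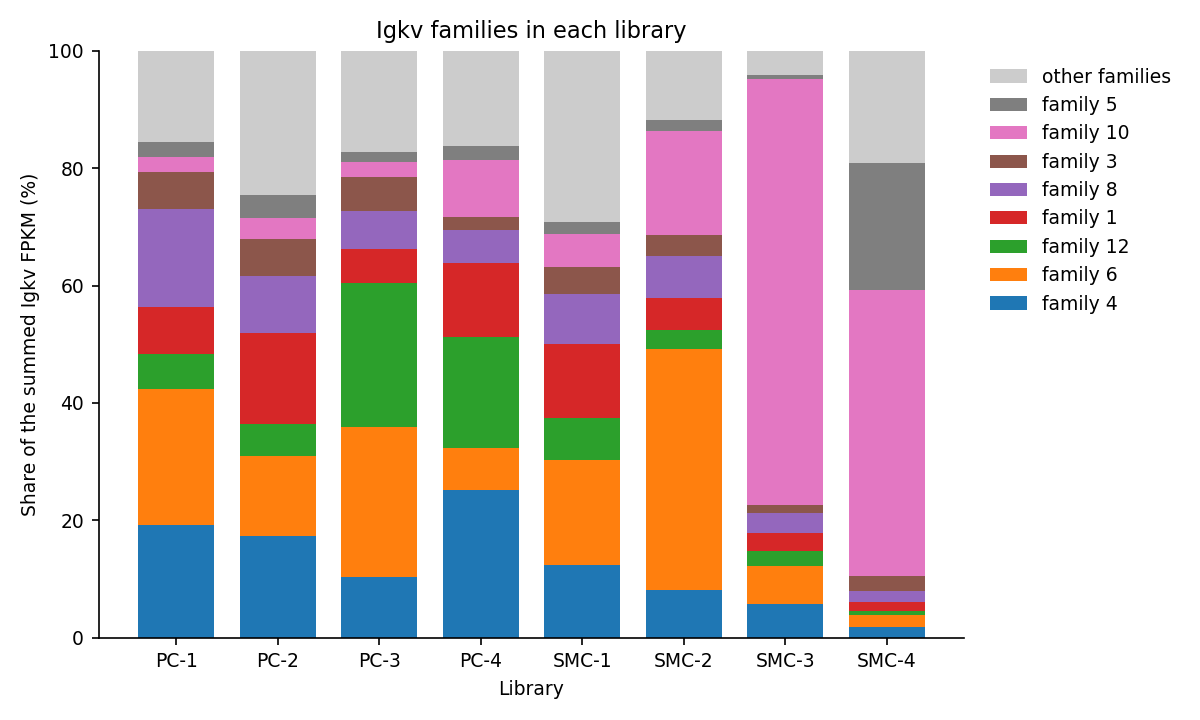
Share of the summed Igkv FPKM (%) held by each of 8 families and by the other families together, stacked to 100% in each library. Family 10 takes 72.5% of SMC-3 and 48.7% of SMC-4 against 2.48% to 9.78% of the pericyte libraries, and family 6 takes 41.1% of SMC-2.

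Agreement between libraries was described by the Pearson correlation of log2(FPKM + 1) over the 99 segments, whose values share the library, its depth and near-identical sequences, so no p is given. The 6 pairs of pericyte libraries had correlations from 0.780 (PC-3 and PC-4) to 0.900 (PC-1 and PC-2), with a mean of 0.844. The 6 SMC pairs ranged from 0.230 to 0.610 with a mean of 0.398, and the 16 pairs across groups from 0.306 to 0.666 with a mean of 0.483. The highest correlation of an SMC library was with a pericyte library, 0.666 between SMC-1 and PC-2. With only segments of at least 1 FPKM in at least 4 libraries, the pericyte mean fell to 0.728. Read as shares, a pair of pericyte libraries had on average 53.5% of the Igkv level in common (42.1% to 64.3%). The mean was 29.7% for a pair of SMC libraries (13.9% to 56.1%) and 35.7% for a pair across groups (16.2% to 66.8%). The highest of all was PC-2 and SMC-1. On average 3.83 of the 10 highest segments were shared by a pair of pericyte libraries, with 1 for PC-1 and PC-4 and 6 for PC-1 and PC-2. In all, 24 segments were among the 10 highest of a pericyte library, and 14 of these in 1 library only.

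Beneath this shared order, single segments stood out in single pericyte libraries. Over the 73 segments with a pericyte mean of at least 10 FPKM, the median coefficient of variation was 81.8%, from 16.7% for Igkv11-125 to 164% for Igkv4-57-1. Igkv4-57-1 was at 34.1, 1315, 17.4 and 162 FPKM in PC-1 to PC-4, so that PC-2 was 38.5 times the median of the other 3 libraries. It was at or under 1.001 FPKM in every SMC library and was called (log2 fold change 6.09 ± 1.25 (SE), q = 0.0125, limma). Other such values were Igkv4-86 in PC-4 (231 FPKM, 25.7 times), Igkv4-61 in PC-1 (538 FPKM, 16.1 times), Igkv12-89 in PC-4 (424 FPKM, 13.01 times) and Igkv12-41 in PC-3 (1231 FPKM, 12.9 times). As shares of the Igkv level of a library the order turned, with 24.8 times for Igkv12-41, 17.03 times for Igkv4-61, 16.5 times for Igkv4-57-1, 15.9 times for Igkv4-86 and 8.12 times for Igkv12-89. All 4 segments other than Igkv4-57-1 were called, but Igkv4-86 had q between 0.0552 and 0.0696 without PC-2 or without any 1 of the SMC libraries. Counted by share of the Igkv level, which takes out the total of a library, 3, 1, 3 and 7 segments of PC-1 to PC-4 were at least 5 times the median share of the other pericyte libraries.

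All 103 segments lie on chromosome 6 between 67505630 and 70654171, a span of 3149 kb, and were placed there by gene identifier. The joining segments begin at Igkj1 (chr6:70672556-70672593), followed by Igkc (chr6:70676429-70676751). The nearest segment, Igkv3-1, lies 18.7 kb and the farthest, Igkv2-137, 3167 kb from Igkj1, and 40 segments are on the plus strand, that of Igkj1, and 63 on the minus strand, which join by inversion. High levels were found along the whole locus. The median pericyte mean was 75.9 FPKM over 40 segments within 1000 kb of Igkj1, 34.1 FPKM over 31 segments at 1000 to 2000 kb and 30.0 FPKM over 32 segments beyond, with highest values of 585, 471 and 662 FPKM. The rank correlation of distance and level was -0.10 over 103 segments, given as a description. The 40 segments on the plus strand held 34.1% of the summed pericyte mean with a median of 44.8 FPKM, and the 63 on the minus strand 65.9% with a median of 57.4 FPKM.

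**Figure D5:**
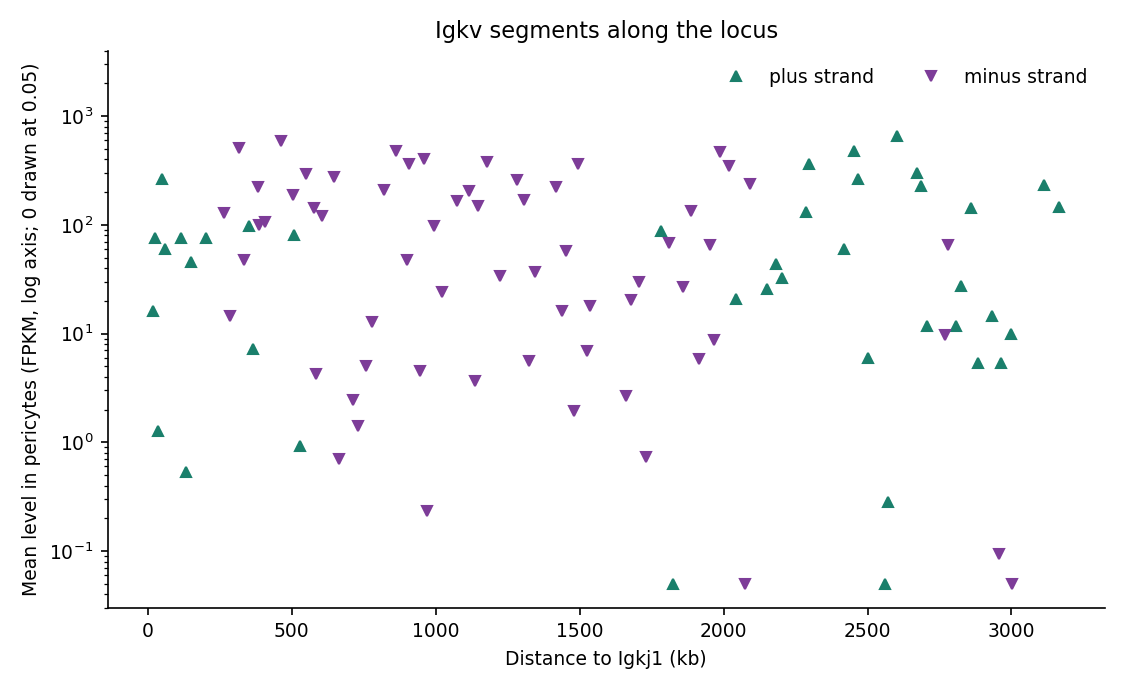
Mean FPKM over the 4 pericyte libraries (vertical log axis, 0 drawn at 0.05) of each segment against its distance to Igkj1 (kb), by strand. Segments above 100 FPKM occur along the whole axis, from Igkv3-4 at 50.5 kb (265 FPKM) to Igkv2-137 at 3167 kb (146 FPKM), and so do segments near 0.

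RefSeq (GRCm38.p6, used for gene types only) lists 95 of the segments as variable segments and 8 as pseudogenes. The pseudogenes held 0.264% of the summed pericyte mean, with a median of 0.118 FPKM against 65.4 FPKM for the other segments. The exception among them was Igkv14-126, with 25.4, 49.0, 15 and 21.3 FPKM in PC-1 to PC-4 and 0.809, 1.04, 0 and 0.366 FPKM in SMC-1 to SMC-4, which was called (log2 fold change 4.13 ± 0.38 (SE), q = 0.000356, limma). Low levels were not limited to pseudogenes. Igkv3-3, Igkv8-26, Igkv7-33 and Igkv3-9 are listed as variable segments and averaged 0.538 to 1.28 FPKM in pericytes, and none of these 4 was called.

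Other genes of the antibody and B cell programme were higher in the same libraries. Of the B cell genes listed, 14 of 17 entries were pericyte-enriched, against 3.24% of all genes tested, among them Cd79a (677 ± 330 FPKM in pericytes, 9.40 ± 6.07 FPKM in SMCs, SD over 4 libraries), which carries the signal of the B cell receptor. Their summed level was 1509 to 3197 FPKM in pericyte libraries and 94.8 to 124 FPKM in SMC libraries. Within pericytes Cd79a did not follow the summed Igkv level: it was at 671, 1145, 478 and 415 FPKM in PC-1 to PC-4. The exceptions were Pax5 and both entries of Ebf1. Pax5 was at 1.35 to 2.13 FPKM in pericytes and at 0 to 0.0698 FPKM in SMCs (q = 8.9e-05, limma), so the groups did not overlap. Its log2 fold change of 1.41 missed the fold threshold and is understated, because 1 FPKM was added to such low levels. The higher entry of Ebf1 was at 49.0 FPKM in pericytes and 58.0 FPKM in SMCs. Of the lambda light chain genes 4 of 5 were pericyte-enriched (background 3.24%). The fifth, Iglv2, was at 1421 FPKM in PC-3 and at 170 and 249 FPKM in SMC-1 and SMC-4. Igj, the joining chain of secreted antibody, was at 68.4 to 492 FPKM in pericytes and 3.10 to 21.5 FPKM in SMCs. Of 9 plasma cell genes, 2 were pericyte-enriched (background 3.24%) and Fkbp11 was SMC-enriched (background 2.66%). At q below 0.05 alone 3 were higher in pericytes (background 10.6%) and 2 in SMCs, Xbp1 (q = 0.0304, limma) included. In all, 3060 of the 27414 genes tested were higher in SMCs at that q. Igkj1 to Igkj5 were listed at 0 in all 8 libraries. Igkj1 is annotated over only 38 bases, shorter than the reads, so a 0 there does not show that joined transcripts were absent.

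Some genes of light chain assembly and early B cells were also higher in pericytes. Dntt, Vpreb1 and Igll1 were pericyte-enriched (3 of 6, background 3.24%), with Igll1 at 149, 315, 18.2 and 46.6 FPKM in PC-1 to PC-4. At q below 0.05 alone, 5 of the 6 were higher in pericytes (background 10.6%), Vpreb2 (q = 0.0439, limma) and Rag1 (q = 0.0272, limma) included. Rag1 was low, at 0.206 to 0.578 FPKM in pericytes and 0.0249 to 0.120 FPKM in SMCs. Markers of T cells were higher in pericytes as well, 7 of 8 being pericyte-enriched (background 3.24%). Their summed levels were 1473 to 2288 FPKM in pericytes and 22.9 to 51.1 FPKM in SMCs. None of 5 myeloid genes was enriched in either group, but Emr1 was higher in SMCs at q below 0.05 alone (q = 0.0437, limma). The sort gated out cells that stained for CD31 or CD45, the latter carried by blood cells, and the part of B cells in the Igkv level was not tested. Of 3 endothelial genes, Pecam1, which encodes CD31, was SMC-enriched (background 2.66%), at 24.96 to 59.7 FPKM in pericytes and 102 to 301 FPKM in SMCs. Cdh5 and Kdr were not called, but Cdh5 was higher in SMCs at q below 0.05 alone (q = 0.0213, limma). Of 4 fibroblast genes, Col1a1, Pdgfra and Lum were SMC-enriched (background 2.66%), whereas Dcn was pericyte-enriched (background 3.24%). Dcn was at 509 to 1165 FPKM in pericytes and listed at 0 in all SMC libraries. Of the 10 mural genes none passed both thresholds in either direction, with summed levels of 599 to 1882 FPKM in pericytes and 1790 to 5668 FPKM in SMCs. Rgs5 was higher in SMCs at q below 0.05 alone (q = 0.0240, limma). Pdgfrb, the marker of the sort, was at 3.21 to 17.6 FPKM in pericytes and 15.6 to 91.5 FPKM in SMCs.

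Other receptor loci were set beside the segments to show where these differ. The 113 heavy chain variable (Ighv) segments had effective numbers of 48.8, 32.5, 27.0 and 26.9 in PC-1 to PC-4 and 17.4, 33.5, 2.01 and 5.89 in SMC-1 to SMC-4. Here too SMC-3 and SMC-4 had the lowest effective numbers, with a single segment at 87.5% of SMC-3. The 106 T cell receptor alpha variable (Trav) segments had effective numbers between 44.0 and 49.0 in the pericyte libraries and between 8.66 and 20.003 in the SMC libraries, but with sums of only 6.71 to 15.3 FPKM in the SMC libraries. The leading Trav segment held at most 9.96% of a pericyte library, below the 21.2% that Igkv12-41 held of PC-3 and the 19.6% that an Ighv segment held of the same library. The order differed between libraries. In PC-2 the leading Trav segment held 9.96% and the leading Igkv segment 7.58%. The leading Ighv segment held 13.6% of PC-2 and 13.4% of PC-4, above the leading Igkv segment there, but was below it in PC-1 and PC-3. These comparisons of sets are descriptions and no test was made.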

How the data were processed

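RNA of sorted cells was reverse transcribed and amplified with an ultra-low input SMART-Seq kit and sequenced after Nextera XT library preparation. Per the study's methods, the authors used Bowtie2 and TopHat to align reads (NCBI Build 37, Ensembl genes), and the deposited table holds FPKM on a linear scale. The program that computed FPKM, its strand setting and its handling of reads shared between segments are not given in the sources used here. Read totals are not known, so depth was estimated from the FPKM step of 1 fragment among Igkv segments, which gave relative depths of 0.857 to 1.09.

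Samples were grouped by title. Genes above 0 FPKM in at least 1 of 8 libraries were tested on log2(FPKM + 1), which understates the fold change of low genes, with limma 3.58.1 in R 4.3.3 (lmFit, eBayes, Benjamini-Hochberg). The fit was tested on simulated data. Positions came from GENCODE release 1 for mouse (Ensembl 65): 103 of 103 identifiers matched, 99 with the same symbol. Sequences were read from the Build 37 genome, and identity is 100% less the edit distance over the longer spliced sequence. Python 3.11.15 with numpy 2.4.6, pandas 2.3.3, scipy 1.17.1 and matplotlib 3.10.9 was used for the other steps.

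Segments named were the 10 highest in pericytes, the 5 highest in SMCs, the leading segment of each library and of each family with 5% of either group, the 10 largest called fold changes, the 5 pericyte values farthest above the other pericyte libraries, those at 10 FPKM in a library without a call, the extremes of spread, and Igkv8-30. Others named were chosen after their values were seen. The members, the marker lists and the tests were chosen with earlier results of these data known.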

Additional observations from a re-analysis of the deposited data

Results flagged for a closer look

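Each measure and named segment was screened within each group for a library that stands far from the other 3, over 84 groups of values. Several segments were named because a single library stood out, so their marks were partly fixed beforehand. The rate of about 1 in 20 by chance, which assumes normal values, does not hold for them, and the number of marks is no evidence of an excess. In pericytes PC-2 stood above the other libraries for Igkv19-93 (1394 FPKM), Igkv4-57-1 (1315 FPKM), Igkv8-27 (863 FPKM), Igkv5-39 (601 FPKM), Igkv15-103 (392.4 FPKM) and Igkv8-30 (249 FPKM). PC-4 stood above them for Igkv10-94 (1136 FPKM), Igkv12-89 (424 FPKM) and Igkv4-86 (231 FPKM), held the highest share of family 10 (9.78%) and the lowest share of family 3 (2.19%), and PC-1 stood out for Igkv4-61 (538 FPKM). In SMCs a single library stood high for Igkv6-20 (77.9 FPKM) and Igkv10-96 (40.1 FPKM), both in SMC-2, and for Igkv5-43 (51.8 FPKM), Igkv15-103 (39.6 FPKM) and the share of family 5 (21.7%), all in SMC-4. SMC-1 stood high for Igkv1-110 (6.55 FPKM, 17 fragments). The remaining marks rest on 1 to 3 fragments: Igkv4-61 (2.50 FPKM) in SMC-1, and Igkv12-89 (0.404 FPKM) and Igkv11-125 (0.711 FPKM) in SMC-2. PC-2 is also the pericyte library with the highest summed Igkv level. As a share of that level, Igkv8-30 in PC-2 was 1.26 times the median of the other pericyte libraries, beside 3.22 times in FPKM.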

How the results depend on the processing

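No result changed direction under any alternative run. The count of pericyte-enriched segments lay between 74 and 86 under the pseudocount, filter, scaling, trend and block alternatives and between 74 and 81 with a library left out, and was 41 with limma treat, whose test asks for a fold change beyond the threshold. With no fold threshold, 76 to 85 segments were higher in pericytes at q below 0.05 with a library left out. With the replicate number as a block the count was 78, of which 77 were among the 80, and Igkv6-20 gained a call while Igkv15-103 lost it; the labels do not say what a shared number means. The deviations of same-numbered libraries correlated at 0.0794 to 0.474 over 4 pairs, 3 of them above 0.1. Of 8 libraries, 5 correlated best with their own number, while the highest correlation was between PC-2 and SMC-1 (0.538). The numbers were therefore not taken to pair the libraries. Replicates 1 and 2 correlated positively across groups (0.0794 to 0.538), as did replicates 3 and 4 (0.209 to 0.474). All correlations between these sets were negative (-0.451 to -0.102). The labels name no batch, the main fit treated the 4 libraries of a group as independent, and the origin of this split was not tested. Over 28 named segments, each under every alternative run for it, a call was kept or stayed absent 317 times, lost 13 times and gained 6 times; where it was lost the log2 fold change stayed at 3.95 to 5.05 and q rose to 0.0552 to 0.118; with a pseudocount of 0.1 Igkv8-18 was called. Segments seen per library moved with the level asked for: at 1 FPKM the mean was 89.75 in pericytes and 27.75 in SMCs, at 10 FPKM it was 70.25 and 1.75, and thinned to equal fragments it was 57.7 and 45.7. Simpson's index gave an effective number of 23.5 in pericytes and 11.1 in SMCs and an evenness of 0.248 in pericytes and 0.189 in SMCs. The SMC effective number was carried by SMC-1, with 32.4, 6.76, 2.03 and 3.30 in SMC-1 to SMC-4. Scaled to TPM, the summed level was 13792 TPM in pericytes and 279.04 TPM in SMCs, and the summed SMC level was 135.9 FPKM without Igkv10-94, and the mean pericyte correlation was 0.728 with low segments left out. With a library left out, the summed level ranged from 9429 to 14189 FPKM in pericytes and from 174 to 211 FPKM in SMCs, segments above 0 from 94.0 to 95.7 and from 47.0 to 57.0, the effective number from 36.98 to 40.4 and from 9.71 to 22.6, evenness from 0.794 to 0.811 and from 0.537 to 0.696, the leading share from 9.55% to 14.1% and from 29.9% to 50.6%, and the mean correlation from 0.822 to 0.882 and from 0.358 to 0.473. Thinning and the use of estimated fragments were chosen after seeing the data. In SMCs the 320 to 687 Igkv fragments of a library limit what can be said of single segments there.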
